A study of Homo sapiens with 8 samples.

Results

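Collagen genes were examined in SKOV-3, CAOV-3, OVCAR-3 and DOV-13, 4 established lines of human ovarian cancer cells, each with and without pI:pC. A probe set was taken when its only gene symbol in the platform annotation had the form of a collagen chain (COL, a number, A and a number). This gave 73 of the 19064 probe sets with 1 symbol, and they belong to 32 of 11963 genes. Each line has 1 array of untreated cells and 1 array of cells given pI:pC (polyriboinosinic:polyribocytidylic acid), a synthetic RNA duplex that stands in for the RNA of a virus. All cells were cultured in the same medium with fetal bovine serum, and the untreated cells differ from the treated ones in the labels by pI:pC alone. Which concentration an array had, and for how long, is not given in the sources used here. Values are deposited log2 expression values, on which a difference of 1 is a doubling. A level on this scale also depends on the probes, so levels are compared between lines for the same probe set and not between genes.

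Collagens are secreted or membrane proteins built from 3 chains that wind into a triple helix. Fibrillar collagens (types I, II, III, V and XI among them) form the cables of connective tissue, type IV chains form the sheet-like network of basement membranes, and type VI forms beaded filaments around cells. The chains are hydroxylated and folded in the endoplasmic reticulum, trimmed outside the cell and cross-linked. In ovarian tumours most fibrillar collagen is made by stromal fibroblasts, and carcinoma cells are known for making basement membrane chains. Of 44 collagen chain genes listed by type, 12 are not analysed here. Measured were 9 of 11 fibrillar, 6 of 6 type IV, 3 of 5 type VI, 7 of 10 FACIT (collagens that sit on fibrils), 3 of 3 short-chain, 1 of 4 transmembrane, 2 of 2 multiplexin genes and COL7A1.

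The lines carried the markers of their labels unevenly, and most fibroblast markers lay below the median gene. Of 12 ovarian carcinoma and epithelial markers, 12 lay at or above the median gene on both arrays of OVCAR-3, 10 in CAOV-3, 6 in SKOV-3 and 5 in DOV-13. CDH1, the adhesion protein of epithelia, read 3.58 to 3.96 in the SKOV-3 and DOV-13 arrays and 9.41 to 9.70 in those of the other lines. VIM, an intermediate filament of mesenchymal cells, read 13.49 to 13.60 in SKOV-3 and DOV-13, 7.53 and 7.23 in CAOV-3 and 5.30 and 5.80 in OVCAR-3. Of 7 markers of a mesenchymal state, 6 lay at or above the median gene in SKOV-3, 6 in DOV-13, 2 in CAOV-3 and 2 in OVCAR-3. Not every marker split the lines as CDH1 and VIM did. By line means the epithelial KRT7 was highest in DOV-13 (12.14) and KRT8 in SKOV-3 (11.53). The mesenchymal FN1 was higher in CAOV-3 (10.85) than in DOV-13 (10.51). Of 8 fibroblast markers, 1 lay at or above the median gene in DOV-13 (ACTA2, smooth muscle actin, at 8.48 on both arrays) and 0 in the other lines. LUM was at 3.22 to 3.59 and POSTN at 3.81 to 4.22 on all 8 arrays. Other fibroblast markers were brighter: DCN read 5.49 to 5.88 and THY1 6.18 to 6.70. THY1 reached the median gene on the untreated OVCAR-3 array (6.70 against 6.67). The 8 interferon-stimulated genes used as a check of the treatment had a median difference of 2.67 (OVCAR-3), 2.05 (CAOV-3), 0.26 (SKOV-3) and 0.10 (DOV-13). The medians of the 8 arrays lay between 6.19 and 6.30, and with so few arrays every value has limited precision. In bulk RNA, fewer cells of a type and less RNA per cell cannot be told apart.

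The 4 lines expressed different sets of collagens, judged on the brightest probe set of each gene. As the files hold no detection calls, a gene was counted as expressed in a line when it reached the median gene on both arrays. By this bar 9 of 32 collagens were expressed in SKOV-3, 7 in DOV-13, 8 in CAOV-3 and 7 in OVCAR-3. Of all genes, 48.9% reached it in SKOV-3, 49.0% in DOV-13, 48.6% in CAOV-3 and 48.8% in OVCAR-3, so the share of collagens is lower. COL1A1, COL4A1, COL4A2 and COL18A1 reached the bar in all 4 lines. COL5A1 reached it in SKOV-3, DOV-13 and CAOV-3, COL6A1 in DOV-13, CAOV-3 and OVCAR-3, COL4A5 in CAOV-3 and OVCAR-3, and COL5A2 in SKOV-3 and OVCAR-3. In a single line it was reached by COL1A2, COL4A3 and COL7A1 (SKOV-3), COL6A2 (DOV-13) and COL4A6 (CAOV-3). The other 19 collagens reached it in 0 lines. Several of these calls depend on the probe set. On no other probe set did both arrays reach the bar for COL1A1 in DOV-13, CAOV-3 and OVCAR-3 or COL4A2 in CAOV-3 and OVCAR-3. The same held for COL5A1 in CAOV-3, COL5A2 and COL7A1 in SKOV-3, COL6A2 in DOV-13 and COL6A1 in every line counted. In untreated SKOV-3 COL7A1 passed narrowly (6.75 against 6.72). The bar is arbitrary: with the 90th percentile of 21 measured genes of other organs in its place, the counts were 13 in SKOV-3 (60.7% of all genes), 12 in DOV-13 (61.2%), 14 in CAOV-3 (61.6%) and 14 in OVCAR-3 (65.6%). With the 75th percentile of all genes they were 4, 2, 3 and 4 in that order.

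**Figure D1:**
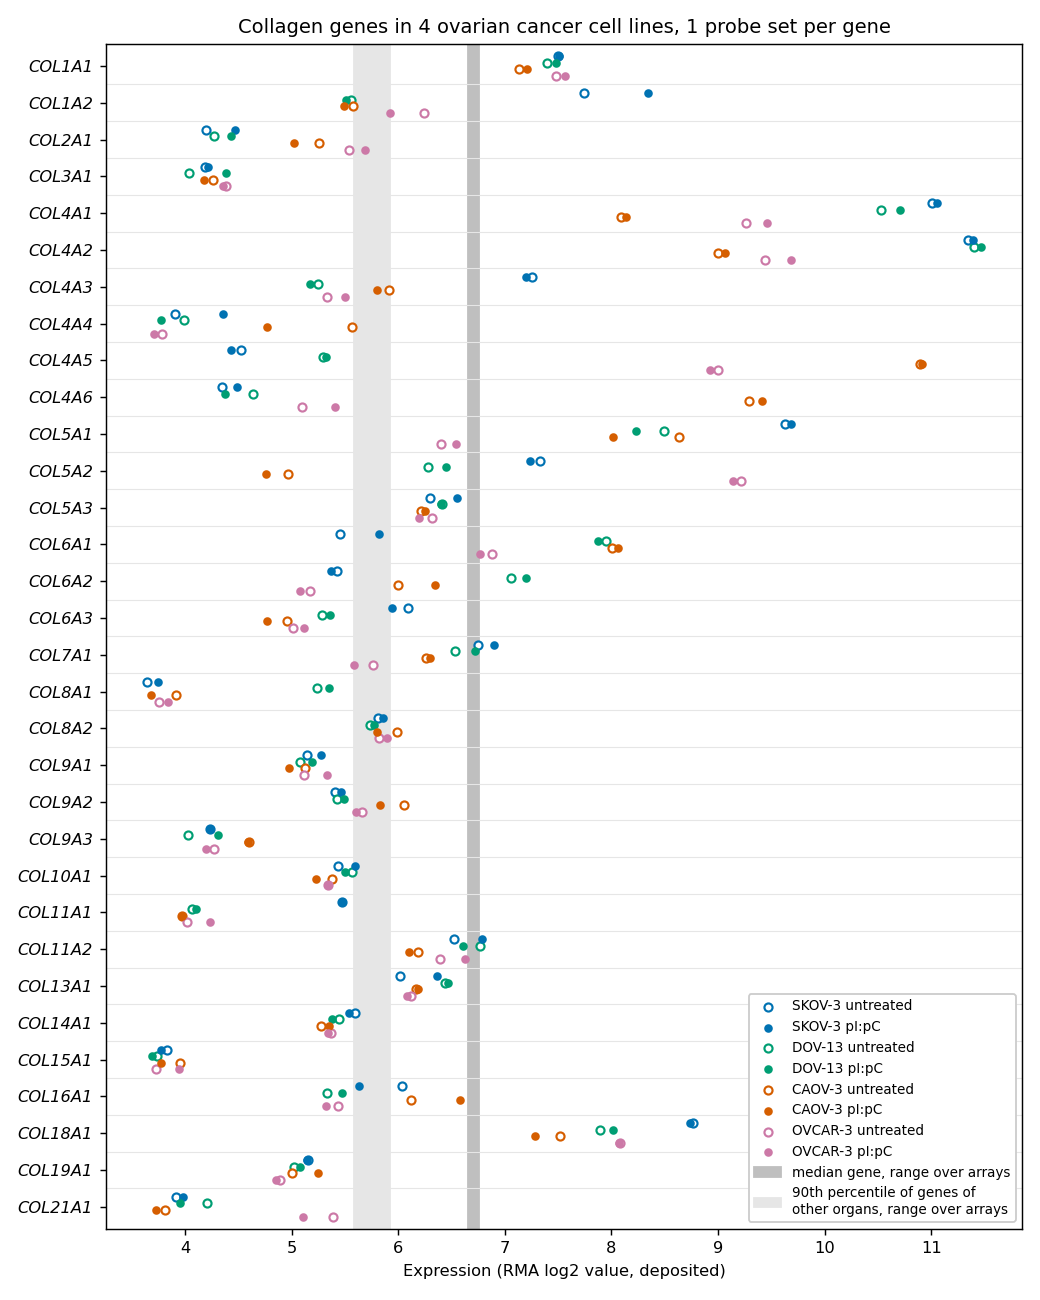
Deposited log2 level of each of the 32 collagen genes (1 probe set per gene, the brightest on average) on the 8 arrays. Colours are cell lines, open circles untreated cells and filled circles cells given pI:pC. The dark band is the range of the median gene over the arrays and the light band the range of the 90th percentile of genes of other organs. Open and filled circles of a line lie close together, and lines lie far apart for COL4A5, COL4A6 and COL5A2.

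Between lines, 23 of 32 collagens differed by limma's F test with treatment as a covariate (Benjamini-Hochberg adjusted p under 0.05), where 69.7% of all genes did. The count is near that background and is no result about collagens. The distance between lines was larger: the highest and lowest line mean of a collagen differed by a median of 1.22, against 0.72 over all genes, and by 1 or more for 18 of 32, against 36.5% of all genes. Each line was then set against the mean of the other 3. SKOV-3 was higher for 11 collagens (24.5% of all genes) and lower for 8 (23.4%). DOV-13 was higher for 7 (23.9%) and lower for 8 (22.3%), CAOV-3 higher for 9 (25.9%) and lower for 11 (27.9%), and OVCAR-3 higher for 4 (23.9%) and lower for 14 (29.1%). Without the untreated OVCAR-3 array the 14 became 8. These 4 comparisons share arrays. The labels name no separate cultures beyond 1 array per line and condition, so these p-values measure the spread between the treated and untreated array of a line and not that between cultures.

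Type IV collagen, the basement membrane network, held the collagens with the largest ranges of line means, COL4A5 and COL4A6. Its 6 chain genes lie as 3 head-to-head pairs, COL4A1 with COL4A2, COL4A3 with COL4A4 and COL4A5 with COL4A6, each pair read in opposite directions from a common stretch of DNA. The chains combine as α1α1α2, α3α4α5 and α5α5α6, the first being the form found in most basement membranes. The sequences at the starts are shown because the 3 pairs behaved differently. They are RefSeq windows of 300 bases (GRCh38.p14), from 250 bases before to 50 after an annotated start. The COL4A2 window (chr13:110307034-110307333, plus strand) also holds the start of COL4A1, and 126 bases separate the starts. The COL4A3 window (chr2:227164374-227164673, plus strand) and the COL4A4 window (chr2:227164156-227164455, minus strand) overlap by 82 bases, with 418 bases between the starts. The COL4A5 window (chrX:108439588-108439887, plus strand) and that of the nearer COL4A6 start (chrX:108439409-108439708, minus strand) overlap by 121 bases, with 379 between the starts. A second annotated COL4A6 start lies 1415 bases from that of COL4A5. Capitals mark matches on either strand to the GC box (GGGCGG), the CCAAT box (CCAAT), the TATA box (TATAAA) and the interferon-stimulated response element (GAAA, any 2 bases, GAAA).
COL4A2: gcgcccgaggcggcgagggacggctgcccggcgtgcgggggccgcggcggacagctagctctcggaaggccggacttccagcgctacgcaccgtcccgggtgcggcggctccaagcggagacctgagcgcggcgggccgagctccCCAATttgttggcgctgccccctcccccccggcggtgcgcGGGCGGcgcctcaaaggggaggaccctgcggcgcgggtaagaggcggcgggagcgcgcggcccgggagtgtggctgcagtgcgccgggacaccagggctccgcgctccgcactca
COL4A3: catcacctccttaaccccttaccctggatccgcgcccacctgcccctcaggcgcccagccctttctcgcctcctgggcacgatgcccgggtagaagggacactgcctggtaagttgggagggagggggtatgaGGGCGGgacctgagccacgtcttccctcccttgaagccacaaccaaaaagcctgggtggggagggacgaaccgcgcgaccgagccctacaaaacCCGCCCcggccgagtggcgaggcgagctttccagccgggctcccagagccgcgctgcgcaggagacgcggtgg
COL4A4: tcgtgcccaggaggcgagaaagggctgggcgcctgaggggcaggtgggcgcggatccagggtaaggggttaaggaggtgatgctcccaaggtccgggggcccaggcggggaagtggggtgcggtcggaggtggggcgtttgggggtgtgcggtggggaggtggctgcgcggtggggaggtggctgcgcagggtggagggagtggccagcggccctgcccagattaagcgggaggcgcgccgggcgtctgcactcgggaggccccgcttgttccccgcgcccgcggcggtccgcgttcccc
COL4A5: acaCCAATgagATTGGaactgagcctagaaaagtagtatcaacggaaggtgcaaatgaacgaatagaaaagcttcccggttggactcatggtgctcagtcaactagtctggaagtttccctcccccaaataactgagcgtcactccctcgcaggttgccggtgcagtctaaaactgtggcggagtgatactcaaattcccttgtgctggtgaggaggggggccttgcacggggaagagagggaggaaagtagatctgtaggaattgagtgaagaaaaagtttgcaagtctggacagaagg
COL4A6: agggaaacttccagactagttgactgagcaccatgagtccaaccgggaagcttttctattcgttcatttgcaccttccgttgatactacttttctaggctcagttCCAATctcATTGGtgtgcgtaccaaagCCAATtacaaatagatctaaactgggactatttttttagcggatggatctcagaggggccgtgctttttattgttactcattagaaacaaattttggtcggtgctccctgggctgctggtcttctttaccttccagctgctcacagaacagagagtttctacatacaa

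The windows of COL4A1 and COL4A2 share a CCAAT match, and both CCAAT matches of the COL4A5 window lie in its overlap with the COL4A6 window, which has 3 in all. The COL4A3 window has 2 GC boxes and the COL4A4 window has no match to any of the 4 motifs. The GC content was 77.7% in the COL4A2 window, 67.7% in that of COL4A3, 74.0% in that of COL4A4, 49.3% in that of COL4A5 and 43.7% in that of COL4A6 (nearer start). Promoter windows were found for 23 of the 32 collagens, 34 windows in all. A GC box was in 19 of the 34, against 45.0% of all 35116 windows, a CCAAT box in 11 (34.6% of all) and a TATA box in 6 (11.5% of all). The interferon motif was in 0 of the 34, against 3.57% of all windows. A match or its absence describes these letters and not the binding of a factor.

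COL4A1 and COL4A2, the chains of the common form, were higher in SKOV-3 and DOV-13 than in CAOV-3 and OVCAR-3. COL4A1 read 11.01 untreated and 11.05 with pI:pC in SKOV-3, 10.52 and 10.71 in DOV-13, 8.09 and 8.14 in CAOV-3 and 9.27 and 9.46 in OVCAR-3. COL4A2 read 11.35 and 11.39 in SKOV-3, 11.40 and 11.46 in DOV-13, 9.0 and 9.07 in CAOV-3 and 9.44 and 9.68 in OVCAR-3. For both genes the arrays of CAOV-3 were the lowest, those of OVCAR-3 next, and no array of these lines reached one of SKOV-3 or DOV-13. Against the mean of the other 3 lines, COL4A1 was lower in CAOV-3 by -2.23 ± 0.07 (SE; limma adjusted p = 3.84e-07) and COL4A2 by -1.76 ± 0.07 (adjusted p = 1.22e-06). In SKOV-3 COL4A1 was higher by 1.67 ± 0.07 (adjusted p = 2e-06) and in DOV-13 COL4A2 by 1.45 ± 0.07 (adjusted p = 4.53e-06). The second probe set of each gene put the lines in the same order, with CAOV-3 lower by -2.01 ± 0.08 on 211981_at (COL4A1) and by -1.85 ± 0.07 on 211966_at (COL4A2). On 211966_at the arrays of CAOV-3 (6.0 on both) and OVCAR-3 (6.34 and 6.50) lay below the median gene, so COL4A2 counted as expressed in these lines rests on the brighter probe set.

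COL4A5 and COL4A6 had the opposite arrangement, high in CAOV-3, and parted in OVCAR-3. COL4A5 read 4.52 and 4.43 in SKOV-3, 5.29 and 5.32 in DOV-13, 10.89 and 10.91 in CAOV-3 and 9.0 and 8.93 in OVCAR-3. COL4A6 read 4.35 and 4.49 in SKOV-3, 4.63 and 4.37 in DOV-13, 9.29 and 9.42 in CAOV-3 and 5.10 and 5.40 in OVCAR-3. CAOV-3 thus had both chains of the α5α5α6 form above the bar, while OVCAR-3 had COL4A5 above it and COL4A6 below the 90th percentile of genes of other organs. CAOV-3 exceeded the mean of the other lines by 4.65 ± 0.07 for COL4A5 (limma adjusted p = 1.81e-08) and by 4.63 ± 0.11 for COL4A6 (adjusted p = 9.51e-08). OVCAR-3 was higher for COL4A5 by 2.07 ± 0.07 (adjusted p = 3.73e-07) and lower for COL4A6 by -0.84 ± 0.11 (adjusted p = 0.000393). The other COL4A6 probe sets also had CAOV-3 highest, by 2.24 ± 0.11 for 211473_s_at and 1.26 ± 0.15 for 210945_at. On 210945_at CAOV-3 read only 4.81 and 5.55, below the 90th percentile of genes of other organs. COL4A5 has 1 probe set, so its pattern could not be compared with another.

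COL4A3 marked SKOV-3, without its neighbour COL4A4. Its brightest probe set on average (214641_at) read 7.26 and 7.19 in SKOV-3, 5.24 and 5.17 in DOV-13, 5.92 and 5.80 in CAOV-3 and 5.33 and 5.50 in OVCAR-3. A second one, 222073_at, spread further, with 8.87 and 8.75 in SKOV-3, 6.60 and 6.0 in CAOV-3, 3.57 and 3.79 in DOV-13 and 3.83 and 3.80 in OVCAR-3. SKOV-3 was higher than the other lines by 1.73 ± 0.08 on the first (limma adjusted p = 2.82e-06) and by 4.21 ± 0.14 on the second (adjusted p = 5.72e-07, over all probe sets). Of the 7 probe sets of COL4A3, 216898_s_at and 216893_s_at also had SKOV-3 highest (5.45 and 5.42, 5.23 and 5.07), and the others read under 4.60 on every array. COL4A4 read 3.90 and 4.36 in SKOV-3, 3.99 and 3.78 in DOV-13, 5.57 and 4.77 in CAOV-3 and 3.78 and 3.71 in OVCAR-3. Here CAOV-3 was highest (1.25 ± 0.20 over the others, adjusted p = 0.00113), at a level below the 90th percentile of genes of other organs. COL4A3 and COL4A4 therefore had different highest lines, as did COL4A1 (SKOV-3) and COL4A2 (DOV-13), the latter at values that nearly coincide.

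**Figure D2:**
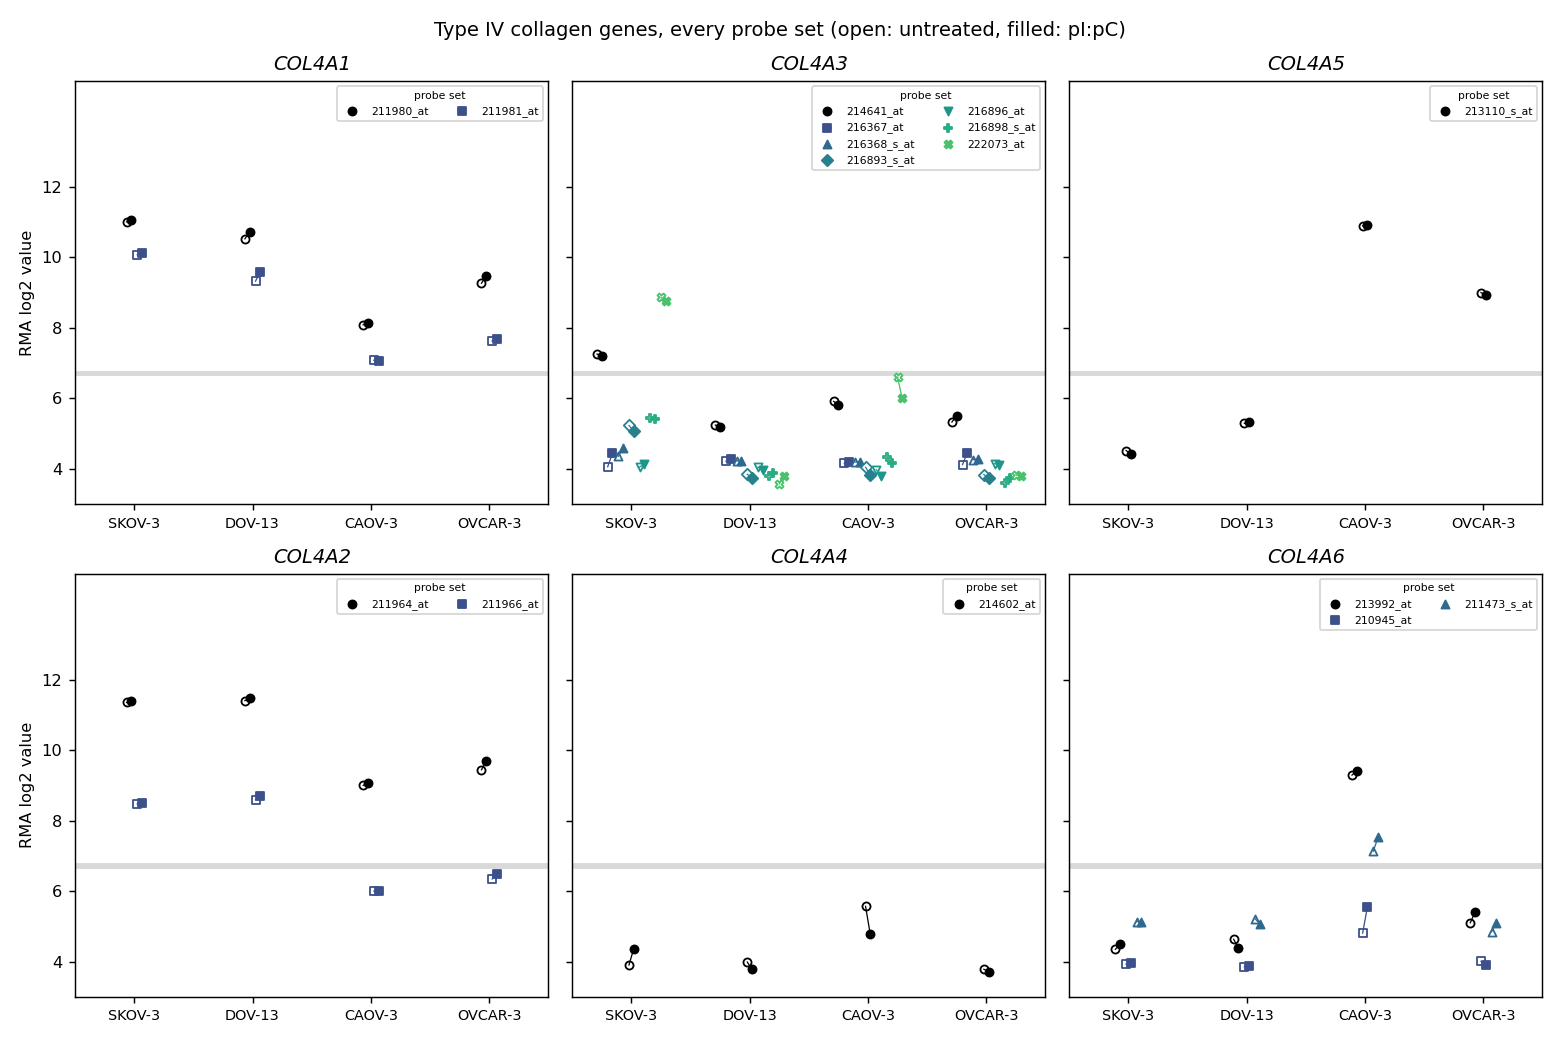
Levels of every probe set of the 6 type IV collagen genes, with head-to-head neighbours one above the other. The x axis gives the line and the y axis the deposited log2 value, open symbols are untreated and filled symbols treated arrays, black circles the probe set used for the gene and the grey band the range of the median gene. CAOV-3 is lowest for COL4A1 and COL4A2 and highest for COL4A5 and COL4A6, and 222073_at of COL4A3 stands out in SKOV-3.

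Among fibrillar collagens, type V chains separated the lines. COL5A1 read 9.63 and 9.69 in SKOV-3, 8.49 and 8.23 in DOV-13, 8.63 and 8.01 in CAOV-3 and 6.40 and 6.54 in OVCAR-3. COL5A2, whose product joins that of COL5A1 in a type V molecule, read 7.33 and 7.23 in SKOV-3, 6.28 and 6.44 in DOV-13, 4.96 and 4.75 in CAOV-3 and 9.22 and 9.14 in OVCAR-3. OVCAR-3 was thus the lowest line for COL5A1 and the highest for COL5A2, and its arrays overlapped with no other line for either gene. Against the other lines OVCAR-3 had -2.31 ± 0.14 for COL5A1 (limma adjusted p = 7.7e-06) and 3.01 ± 0.09 for COL5A2 (adjusted p = 2e-07). CAOV-3 was lower for COL5A2 by -2.75 ± 0.09 (adjusted p = 3.64e-07) and SKOV-3 higher for COL5A1 by 1.94 ± 0.14 (adjusted p = 2.53e-05). The other probe sets of both genes had OVCAR-3 at the same end, by -3.05 ± 0.20 (212488_at) and -3.18 ± 0.20 (212489_at) for COL5A1 and by 2.52 ± 0.09 (221730_at) for COL5A2. COL5A3, the third type V chain, read 6.20 to 6.55 on the 8 arrays and did not pass between lines (F test adjusted p = 0.291).

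For type I collagen, the main collagen of bone and scar, COL1A2 was highest in SKOV-3 and COL1A1 gave different patterns on different probe sets. COL1A2, which encodes its α2 chain, read 7.74 and 8.34 in SKOV-3, 5.56 and 5.51 in DOV-13, 5.57 and 5.49 in CAOV-3 and 6.24 and 5.92 in OVCAR-3. SKOV-3 exceeded the others by 2.33 ± 0.16 (limma adjusted p = 1.76e-05), and by 3.51 ± 0.09 on the other probe set (202404_s_at), where DOV-13 and CAOV-3 were at 3.87 to 4.01. COL1A1, the α1 chain, depends on the probe set. The one with the highest mean (217430_x_at, whose suffix marks probes that can match other transcripts) read 7.13 to 7.56 on all 8 arrays, and COL1A1 counted as expressed everywhere rests on it. On 202310_s_at COL1A1 read 7.12 and 7.64 in SKOV-3, 6.72 and 6.26 in CAOV-3, 6.03 and 5.73 in OVCAR-3 and 4.72 and 4.01 in DOV-13, with SKOV-3 higher by 1.80 ± 0.21 and DOV-13 lower by -2.22 ± 0.21 (adjusted p = 0.000227 and 8.03e-05, over all probe sets). CAOV-3 was below the other lines on 217430_x_at (-0.32 ± 0.07, adjusted p = 0.00468) and above them on 202310_s_at (0.62 ± 0.21, adjusted p = 0.0373), so no direction is given for COL1A1 in CAOV-3.

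**Figure D3:**
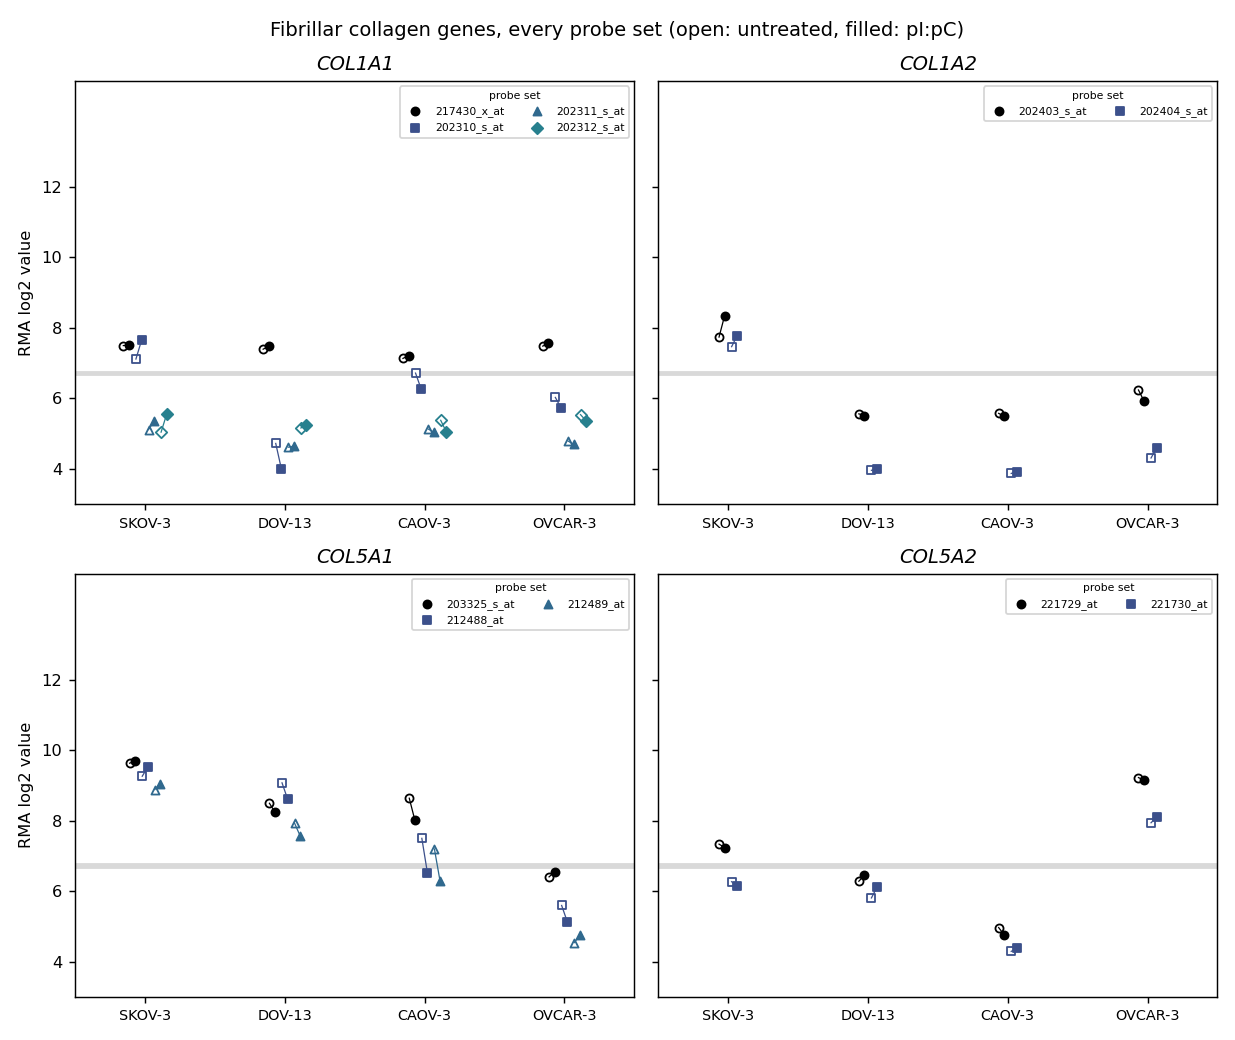
Levels of every probe set of COL1A1, COL1A2, COL5A1 and COL5A2. The x axis gives the line and the y axis the deposited log2 value, open symbols are untreated and filled symbols treated arrays, black circles the probe set used for the gene and the grey band the range of the median gene. SKOV-3 is highest on both probe sets of COL1A2, OVCAR-3 lowest for COL5A1 and highest for COL5A2, and the probe sets of COL1A1 differ in their pattern.

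Of the remaining fibrillar genes, COL2A1, COL3A1 and COL11A1 were dim, and COL11A2 lay nearer the median gene on its used probe set. COL3A1, the type III chain of soft connective tissue, read 4.04 to 4.39 on its used probe set and 3.35 to 4.39 over all 4, with an F test adjusted p of 0.528. COL2A1, the cartilage collagen, was highest in OVCAR-3 (5.54 and 5.69) and next in CAOV-3 (5.25 and 5.02), against 4.20 to 4.47 in the other lines. COL11A1, often described as a marker of tumour fibroblasts, was highest in SKOV-3 at 5.47 on both arrays, against 3.97 to 4.23 elsewhere, 1.41 ± 0.08 over the other lines (limma adjusted p = 5.51e-06). COL11A2 read 6.10 to 6.79 and was lower in CAOV-3 by -0.47 ± 0.10 (adjusted p = 0.0054), a call lost without the treated CAOV-3 array (adjusted p = 0.0761). On 213870_at COL11A2 did not pass the F test (adjusted p = 0.0635, over all probe sets). The CAOV-3 contrast there was -0.13 ± 0.08 (limma adjusted p = 0.207), and OVCAR-3 had the lowest mean. COL2A1 and COL11A1 lay under the 90th percentile of genes of other organs in every line except for the treated OVCAR-3 array of COL2A1.

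The 3 measured type VI collagen genes had different patterns. COL6A1 read 5.46 and 5.81 in SKOV-3, 7.95 and 7.88 in DOV-13, 8.0 and 8.06 in CAOV-3 and 6.88 and 6.77 in OVCAR-3. COL6A2, its neighbour in the genome, read 5.42 and 5.37 in SKOV-3, 7.06 and 7.20 in DOV-13, 6.0 and 6.34 in CAOV-3 and 5.17 and 5.07 in OVCAR-3. COL6A3, the third chain, read 6.09 and 5.94 in SKOV-3, 5.28 and 5.36 in DOV-13, 4.95 and 4.77 in CAOV-3 and 5.01 and 5.12 in OVCAR-3. SKOV-3 was lower for COL6A1 by -1.96 ± 0.10 (limma adjusted p = 4.85e-06) and COL6A2 by -0.74 ± 0.10 (adjusted p = 0.000494), and higher for COL6A3 by 0.93 ± 0.09 (adjusted p = 7.64e-05). DOV-13 was higher for COL6A2 by 1.56 ± 0.10 (adjusted p = 1.27e-05) and COL6A1 by 1.08 ± 0.10 (adjusted p = 9.13e-05). On the other COL6A2 probe set (213290_at) the differences were smaller: 0.37 ± 0.07 for DOV-13 (adjusted p = 0.00438), -0.13 ± 0.07 for SKOV-3 (adjusted p = 0.187), and -0.25 ± 0.07 for CAOV-3, which was 0.29 ± 0.10 higher on the first. The call for SKOV-3 was thus lost and the direction for CAOV-3 turned, while DOV-13 was highest on both. No line reached the bar for all 3 chains. COL6A1 has 8 probe sets, the largest number of any collagen. The pattern above comes from 213428_s_at, and the other 7 differed by at most 0.42 between line means.

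**Figure D4:**
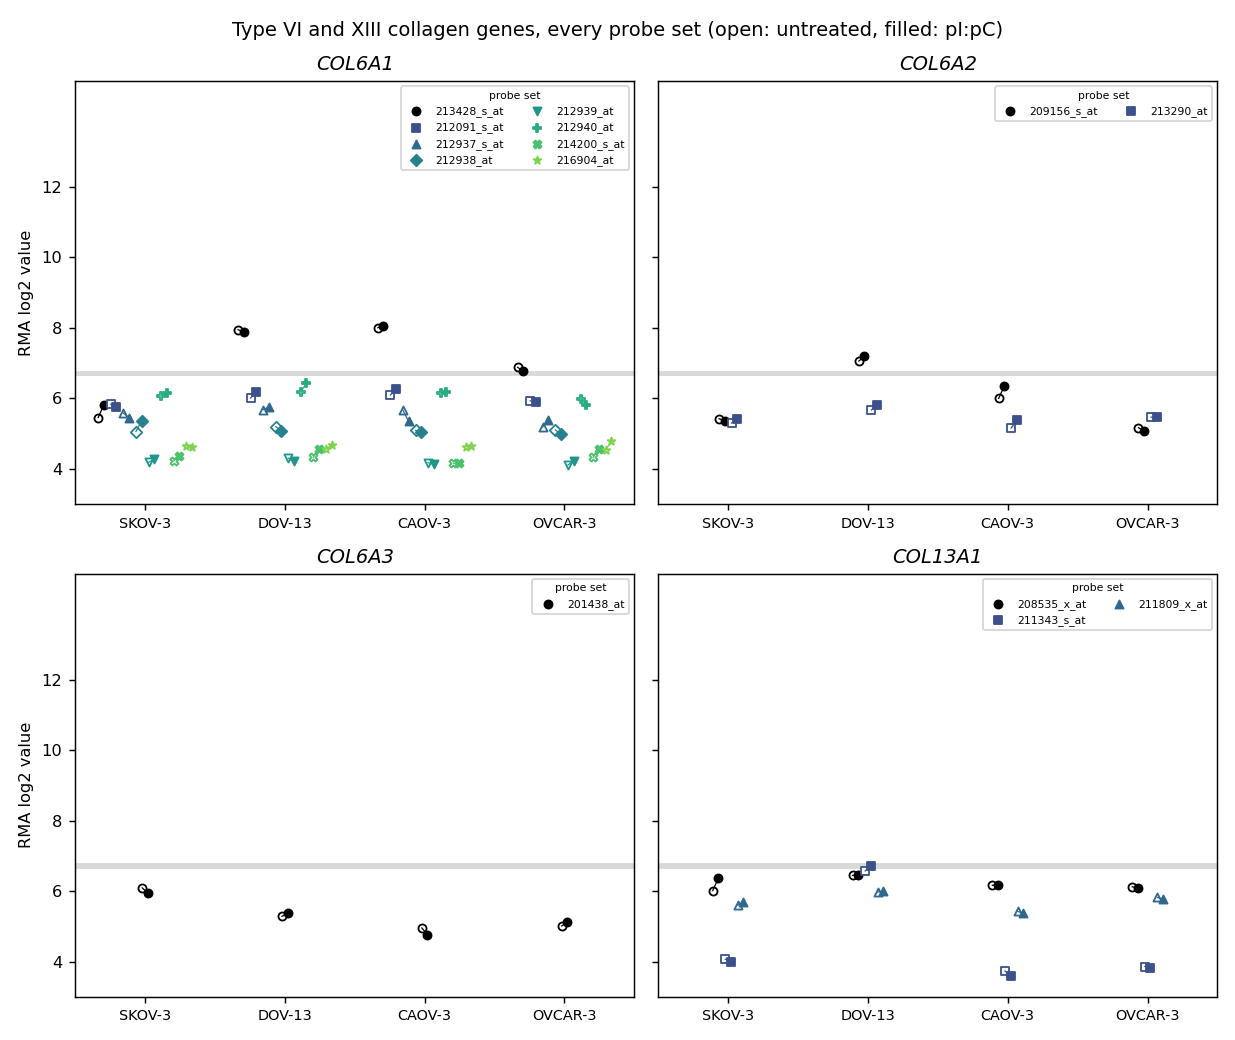
Levels of every probe set of COL6A1, COL6A2, COL6A3 and COL13A1. The x axis gives the line and the y axis the deposited log2 value, open symbols are untreated and filled symbols treated arrays, black circles the probe set used for the gene and the grey band the range of the median gene. On 213428_s_at of COL6A1 DOV-13 and CAOV-3 are highest, and on 211343_s_at of COL13A1 DOV-13 stands above the other lines.

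Among collagens of other classes, COL18A1, COL7A1, COL8A1 and COL13A1 differed between lines on at least 1 probe set. COL18A1, a multiplexin of basement membranes whose end piece is endostatin, read 8.77 and 8.73 in SKOV-3, 7.89 and 8.02 in DOV-13, 7.51 and 7.28 in CAOV-3 and 8.08 and 8.07 in OVCAR-3. It was higher in SKOV-3 by 0.94 ± 0.09 (limma adjusted p = 6.92e-05) and lower in CAOV-3 by -0.86 ± 0.09 (adjusted p = 8.6e-05). On 209082_s_at COL18A1 was higher in SKOV-3 by 0.58 ± 0.10, and its SKOV-3 arrays (8.29 and 8.57) overlapped those of DOV-13 (8.30 and 8.25) and OVCAR-3 (8.38 and 8.34). CAOV-3 was lowest on both. COL7A1, the anchoring fibril of skin, ran from high to low as SKOV-3 (6.75 and 6.89), DOV-13 (6.53 and 6.72), CAOV-3 (6.26 and 6.30) and OVCAR-3 (5.76 and 5.58) on 217312_s_at. On 204136_at the arrays of SKOV-3 (6.42 and 6.38) and DOV-13 (6.51 and 6.35) overlapped, so these neighbours in the order are not told apart, and on both OVCAR-3 was lowest. COL8A1, a short-chain network collagen, was at 5.24 and 5.35 in DOV-13 and at 3.65 to 3.91 elsewhere. DOV-13 was 1.53 ± 0.09 over the other lines (adjusted p = 8.97e-06), but below the 90th percentile of genes of other organs (5.92 on both arrays). On 221152_at COL8A1 read 3.86 and 4.02 in DOV-13, only 0.33 ± 0.08 over the other lines. COL13A1, a transmembrane collagen, was also highest in DOV-13 on 211343_s_at, at 6.57 and 6.71 against 3.60 to 4.07 elsewhere. There DOV-13 was 2.79 ± 0.08 over the other lines (adjusted p = 3e-07, over all probe sets). On the brightest COL13A1 probe set (208535_x_at) DOV-13 was 0.30 ± 0.09 higher.

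The FACIT collagens reached the bar in 0 lines. COL21A1 was at 5.39 and 5.11 in OVCAR-3 against 3.72 to 4.21 elsewhere, 1.32 ± 0.09 over the other lines (limma adjusted p = 1.12e-05). COL16A1 was highest in CAOV-3 at 6.12 and 6.58, 0.81 ± 0.15 over the others (adjusted p = 0.00241), but the untreated SKOV-3 array at 6.03 lay close. COL9A2 (0.43 ± 0.08, adjusted p = 0.00275) and COL9A3 (0.39 ± 0.09, adjusted p = 0.00672) were higher in CAOV-3, the latter a call lost without the untreated CAOV-3 array (adjusted p = 0.062). COL9A1, COL14A1 and COL19A1 read 4.85 to 5.60 on every array on their used probe sets and did not pass the F test. Single contrasts did pass for COL14A1 (SKOV-3, 0.21 ± 0.07, adjusted p = 0.041) and COL19A1 (OVCAR-3, -0.24 ± 0.08, adjusted p = 0.0383). The COL14A1 contrast was not called on its other probe sets, 212865_s_at (0.11 ± 0.08, adjusted p = 0.326) and 216865_at (0.03 ± 0.08, adjusted p = 0.788). The F test was not passed either by the short-chain collagens COL8A2 and COL10A1 and the multiplexin COL15A1.

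No collagen gene passed the test for a shared change with pI:pC over the 4 lines. With the line as a block in limma, 0 of 32 collagens and 0.0% of all genes passed, at a smallest adjusted p of 0.988. The interferon-stimulated genes did not pass either: IFIT1, at a mean of 1.88 ± 1.88 (SD, n = 4 lines), had a limma adjusted p of 0.988, so a count of 0 here does not show that a gene was unaffected. At an unadjusted p under 0.05 there were 0 of 32 collagens, against 3.74% of all genes. The mean change (treated minus untreated, over 4 lines) was positive for 19 of 32 collagens, against 53.7% of all genes, and its median was 0.04 against 0.01. Means ran from -0.17 to 0.12 on the log2 scale. COL1A1, COL4A1 and COL4A2 were higher with pI:pC in all 4 lines (6.88% of all genes were) and 0 of 32 were lower in all (4.52% of all genes). For COL1A1 this holds on 217430_x_at only: on 202310_s_at it differed by 0.53 in SKOV-3, -0.71 in DOV-13, -0.45 in CAOV-3 and -0.29 in OVCAR-3, a mean of -0.23. For COL4A1 the other probe set (211981_at) had -0.03 in CAOV-3.

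COL4A1 and COL4A2 were higher with pI:pC in every line on their brighter probe sets, and neither passed the test. Of 32 collagens 3 had this sign pattern, where 6.88% of all genes did, and so small a count is no result about collagens. COL4A1 differed by 0.05 in SKOV-3, 0.19 in DOV-13, 0.05 in CAOV-3 and 0.20 in OVCAR-3, a mean of 0.12 ± 0.08 (SD, n = 4 lines; limma 95% interval -0.02 to 0.27, adjusted p = 0.988). COL4A2 differed by 0.04, 0.06, 0.07 and 0.24 in that order, a mean of 0.10 ± 0.09 (interval -0.05 to 0.25). The intervals hold 0 and, at their upper ends, allow changes well under a doubling. Over the 32 collagens the lowest end of an interval was -0.56 (COL4A4) and the highest 0.36 (COL1A2), so a shared change of 1 in either direction lies outside all 32 intervals. These intervals are for the used probe set of each gene. They rest on the spread between lines, drawn by limma towards that of all genes (4.41 prior against 3 residual degrees of freedom). For COL4A4, whose SD over the 4 lines was 0.51, this made the interval narrower. The intervals do not bear on a change in 1 line.

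Within lines there was no test, since each has 1 array per condition. No collagen differed by 1 or more in any line. Of all genes, 0.853% were higher and 0.134% lower by that much in CAOV-3 with the higher array at or above the bar, 0.217% and 0.0% in OVCAR-3, 0.0167% and 0.00836% in DOV-13 and 0.00836% in each direction in SKOV-3. The 128 differences ran from -0.80 to 0.61, and 3 were 0.5 or more in size. COL4A4 went from 5.57 to 4.77 in CAOV-3, COL5A1 from 8.63 to 8.01 in CAOV-3, and COL1A2 from 7.74 to 8.34 in SKOV-3. With the same bar at a size of 0.5, COL5A1 alone was counted as lower in CAOV-3 (1.53% of all genes) and COL1A2 alone as higher in SKOV-3 (0.092%), and no other collagen was counted in any line. The other shares of all genes at that size were 2.3% higher in CAOV-3, 0.334% lower in SKOV-3, 0.284% higher and 0.15% lower in DOV-13, and 0.493% higher and 0.184% lower in OVCAR-3.

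COL5A1 in CAOV-3 was lower on each of its 3 probe sets. It differed by -0.62 on 203325_s_at, by -0.98 on 212488_at and by -0.90 on 212489_at. The same probe sets gave -0.26, -0.46 and -0.36 in DOV-13, 0.06, 0.26 and 0.17 in SKOV-3 and 0.14, -0.46 and 0.20 in OVCAR-3. COL1A2 in SKOV-3 differed by 0.61 on the first and 0.31 on the second probe set, and COL1A1 by 0.53 on 202310_s_at and 0.51 on 202312_s_at but 0.01 on 217430_x_at. Of the 73 collagen probe sets 6 differed by 0.5 or more in CAOV-3 (4.77% of all single-symbol probe sets did), 3 in SKOV-3 (1.56%), 1 in DOV-13 (0.834%) and 0 in OVCAR-3 (1.29%). Of the 6 in CAOV-3, 5 were lower and 1 was higher. The latter was 210945_at of COL4A6 (0.74, from 4.81 to 5.55), where the used COL4A6 probe set differed by 0.13. Collagens with the higher value under pI:pC numbered 20 in SKOV-3 (55.9% of all genes), 20 in DOV-13 (60.3%), 13 in CAOV-3 (46.0%) and 15 in OVCAR-3 (46.3%). The collagens' median difference by line was -0.02 (OVCAR-3), -0.09 (CAOV-3), 0.05 (DOV-13) and 0.04 (SKOV-3), and over all genes it was -0.01, -0.02, 0.03 and 0.02.

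**Figure D5:**
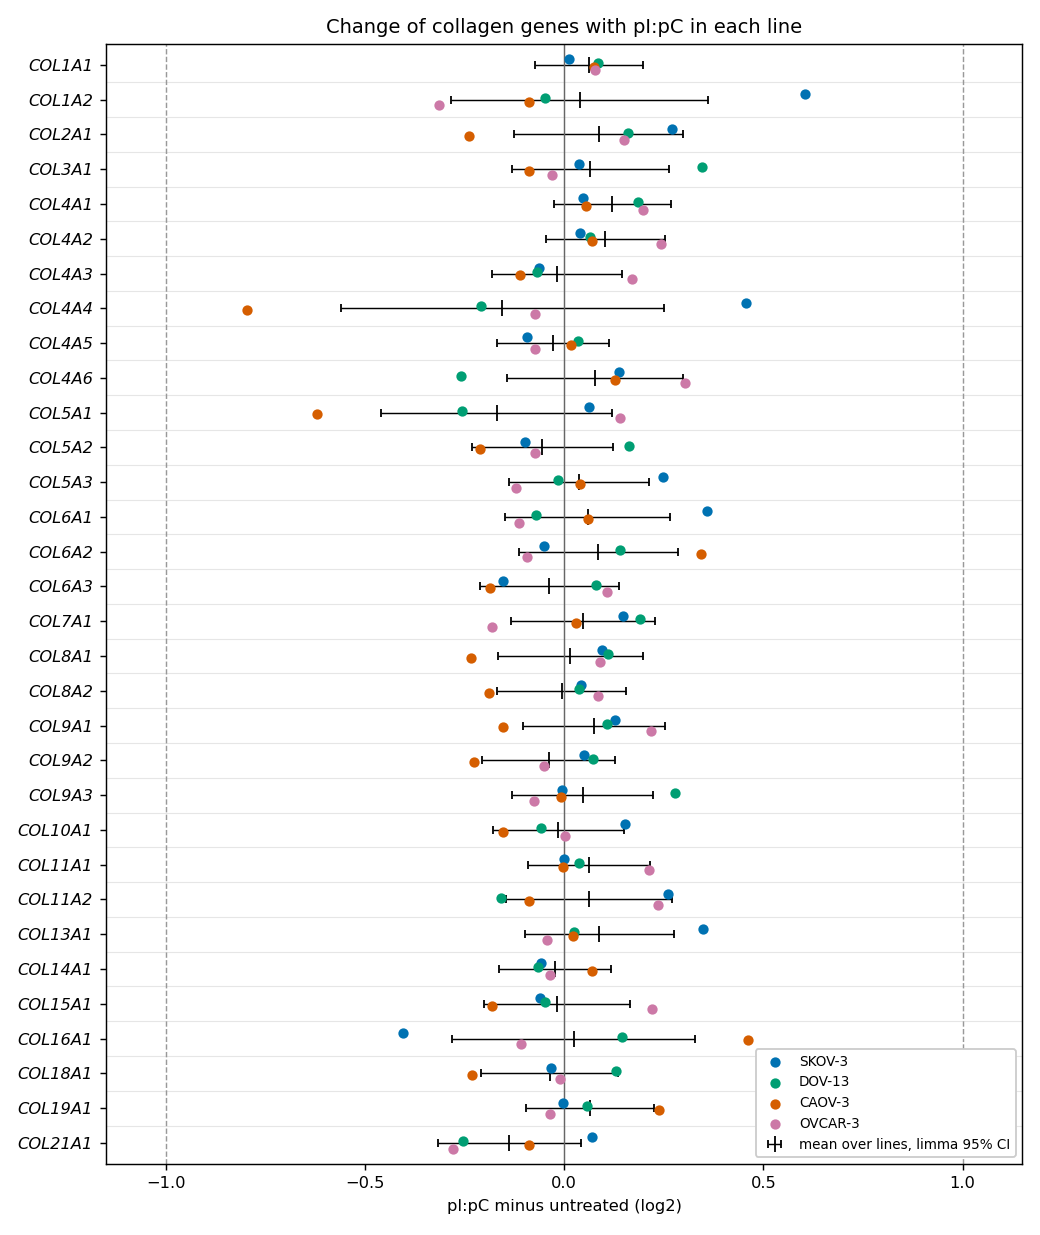
Treated minus untreated log2 value of each of the 32 collagen genes. Coloured points are the 4 lines, the black tick is their mean with limma's 95% interval, and dashed lines mark a difference of 1. No point reaches a dashed line, and CAOV-3 lies lowest for COL4A4 (-0.80) and COL5A1 (-0.62).

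The genes that make and handle collagen were counted by the same tests, beside 69.7% of all genes that passed between lines and 0.0% that passed for pI:pC. The counts of these lists are small and are given as a description. Of 17 measured genes of collagen modification, folding and export, 16 passed the F test between lines (69.7% of all genes) and 0 passed for pI:pC. SERPINH1, the chaperone HSP47 that binds the collagen helix, read 6.93 and 6.76 in DOV-13 against 9.17 to 10.52 in the other lines (-3.20 ± 0.08, limma adjusted p = 2.36e-07). P3H2, a prolyl 3-hydroxylase known to act on type IV collagen, read 5.19 and 5.21 in CAOV-3 against 9.19 to 9.47 elsewhere (-4.17 ± 0.08, adjusted p = 3.79e-08). CAOV-3 was also the line with the lowest COL4A1 and COL4A2, but with the highest COL4A4, COL4A5 and COL4A6. A link between P3H2 and these chains was not tested. PLOD2, a lysyl hydroxylase, was highest in CAOV-3 at 11.08 and 11.72 (3.10 ± 0.15, adjusted p = 2.56e-06). Over pI:pC the list had a median mean change of 0.05, with PLOD2 at 0.19 ± 0.37 (SD, n = 4 lines), COLGALT1 at 0.15 ± 0.11 and P3H3 at 0.14 ± 0.09.

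Of 10 measured genes of propeptide cleavage and cross-linking, 8 passed between lines (69.7% of all genes) and 0 with pI:pC. LOX, a lysyl oxidase that cross-links collagen, was at 8.81 and 8.90 in DOV-13 against 4.35 to 6.03 elsewhere (3.62 ± 0.16, limma adjusted p = 2.26e-06). LOXL2, which cross-links type IV collagen, was at 5.83 and 5.95 in OVCAR-3 against 9.59 to 11.19 elsewhere (-4.76 ± 0.08, adjusted p = 2.05e-08). TGM2, a transglutaminase, had the largest mean change of the list with pI:pC, 0.32 ± 0.26 (SD, n = 4 lines), followed by PCOLCE at -0.27 ± 0.31 and LOXL1 at -0.16 ± 0.20. Of 15 genes of collagen breakdown and uptake, 9 passed between lines (69.7% of all genes) and 0 with pI:pC. MMP1, the interstitial collagenase that cuts fibrillar collagen, was at 11.26 and 11.44 in SKOV-3 against 3.65 to 3.91 elsewhere (7.55 ± 0.07, adjusted p = 2.99e-09). SKOV-3 was also the line with the highest COL1A2, while COL5A2 was highest in OVCAR-3, and a link to MMP1 was not tested. TIMP1, an inhibitor of such proteases, was highest in CAOV-3 (12.24 and 12.45) and lowest in OVCAR-3 (7.01 and 6.98).

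Of the partners of type IV collagen in the basement membrane, 5 of 5 passed between lines (69.7% of all genes). NID1, which links laminin to type IV collagen, was at 9.0 and 9.24 in CAOV-3, 6.51 and 6.82 in DOV-13, 3.90 and 3.72 in SKOV-3 and 4.30 and 4.24 in OVCAR-3. NID2, its relative, was at 9.81 and 10.03 in SKOV-3, 7.83 and 7.66 in CAOV-3, 5.59 and 6.35 in OVCAR-3 and 4.24 and 4.22 in DOV-13. SKOV-3 thus had NID2 without NID1 above the bar, and CAOV-3 had both. SPARC, a collagen-binding protein, was at 5.40 and 5.07 in OVCAR-3 and at 11.15 to 11.66 in the other lines (-6.22 ± 0.10, limma adjusted p = 1.88e-08). None of the 5 passed with pI:pC (0 of 5), and the median of their mean changes was 0.08.

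Of 7 measured collagen receptor genes 5 passed between lines, near the 69.7% of all genes, and 0 with pI:pC over the lines. ITGA2, the integrin chain that binds collagen with ITGB1, went from 6.77 to 8.34 in CAOV-3 with pI:pC, from 5.65 to 5.81 in SKOV-3, 6.47 to 6.49 in DOV-13 and 5.77 to 6.01 in OVCAR-3. Its CAOV-3 difference of 1.57 was above 1, where 0.853% of all genes were higher by that much, and its mean change of 0.50 ± 0.72 (SD, n = 4 lines) did not pass. Of 11 measured genes of TGF-beta signalling, which drives collagen genes in fibroblasts, 11 passed between lines (69.7% of all genes) and 0 with pI:pC. CCN2, a target of that pathway, was at 5.02 and 4.89 in CAOV-3 against 8.92 to 10.53 elsewhere. TGFBI was at 5.86 and 6.38 in OVCAR-3 against 9.63 to 11.97 elsewhere, and TGFB2, a ligand, was highest in DOV-13 (8.18 and 8.31). With pI:pC the list had a median mean change of -0.05, with TGFBR1 at -0.29 ± 0.21, TGFBR2 at -0.21 ± 0.24 and SMAD3 at 0.17 ± 0.30.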

How the data were processed

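RNA was measured on 8 Affymetrix arrays. Per the submitters' processing notes the authors summarised them with RMA, and the deposited values are log2 expression per probe set. Neither a version of RMA nor joint or separate processing of the arrays is stated in the sources used here. RMA compresses differences of dim probe sets. Probe sets were named from the supplied platform annotation (19064 of 22277 with 1 symbol, array controls left out, 0 symbols updated). Each of 11963 genes was represented by its brightest probe set (highest mean of the 8 arrays), and 22 of the 32 collagens have several. Groups and lines came from the labels. The cell line pairs the arrays: the 2 arrays of a line deviated together from their group means (correlations of 0.945 to 0.968).

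All genes were fitted with lmFit and eBayes of limma 3.58.1 (R 4.3.3) on line and treatment (3 residual and 4.41 prior degrees of freedom). Tests were two-sided at 0.05, and p-values of a comparison were adjusted over every gene by the Benjamini-Hochberg method. The same code was tested on simulated data. Values of probe sets other than the used ones come from a fit of all 19064. A difference in a line counted when it was at least 1 in size and the higher value reached the mean of the medians of both arrays. Every collagen could be named, and of each other list the 3 genes with the largest range of line means and the 3 with the largest mean change. LUM, THY1, KRT7, KRT8 and FN1 were chosen after their values were seen. The members and lists were chosen with earlier results of these data known.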

Additional observations from a re-analysis of the deposited data

Results flagged for a closer look

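A value far from those of the other lines was sought in 96 groups of 4 lines (levels without pI:pC, levels with pI:pC, and differences, for each of 32 collagens), and 9 were found. Chance gives about 1 in 20 only for independent values drawn from a single normal distribution. The values here are of different lines, and the levels of a gene with and without pI:pC go together in a line. The 9 of 96 can therefore not be set against that share. In 6 of the 9 a line stood above the rest in level. COL4A6 was at 9.29 in untreated CAOV-3 (5.10 or lower elsewhere), COL4A4 at 5.57 in untreated CAOV-3 (3.99 or lower) and COL11A1 at 5.47 in untreated SKOV-3 (4.07 or lower). COL1A2 was at 8.34 in treated SKOV-3 (5.92 or lower), and COL8A1 in DOV-13 at 5.24 untreated and 5.35 treated (3.91 or lower). These levels of COL4A4, COL11A1 and COL8A1 lay below the 90th percentile of genes of other organs on their arrays. On the COL8A1 probe set 221152_at DOV-13 read only 3.86 and 4.02. The other 3 were differences between treated and untreated cells. COL4A2 differed by 0.24 in OVCAR-3, against 0.07 or less in the other lines. COL8A1 differed by -0.23 in CAOV-3 and by 0.09 to 0.11 elsewhere, and COL1A1 by 0.0117 in SKOV-3 against 0.08 elsewhere. Each of these differences comes from a single pair of arrays and was not tested. With 1 array pair per line, whether the effect of pI:pC on a collagen differs between lines cannot be tested either.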

How the results depend on the processing

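The test for pI:pC called 0 collagens and 0 of all genes in each of 12 alternatives (smallest adjusted p of a collagen 0.704), the fit without the cell line as a block included. As it called no interferon-stimulated gene either, these counts say nothing about stability. The median collagen change stayed within 1 SD of line medians of its value of 0.04 and ran from -0.00261 to 0.0536 when a line was left out. Requiring genes at or above the median level left 8 collagens tested, so that 8 passed between lines in place of 23, and against the other lines SKOV-3 was higher for 5 and lower for 2, DOV-13 higher for 3 and lower for 2, CAOV-3 higher for 2 and lower for 5, and OVCAR-3 lower for 4. Leaving out single arrays gave 20 to 24 collagens between lines and 8 to 15 lower in OVCAR-3. The bar decides how many collagens count as expressed: at the 75th percentile 4 in SKOV-3, 2 in DOV-13, 3 in CAOV-3 and 4 in OVCAR-3, and at the 90th percentile of genes of other organs 12 in DOV-13, 14 in CAOV-3 and 14 in OVCAR-3. With a size of 0.5 in place of 1, 1 collagen was counted in SKOV-3 and 1 in CAOV-3. Of 330 alternatives for 23 single collagens set against the other lines, 326 stayed on the same side, 2 lost the call and 2 turned the sign. The latter were COL1A1 in CAOV-3, at 0.10 with the mean of its probe sets and 0.62 with the most variable one. With the same choices the mean change of COL1A1 with pI:pC was -0.0326 and -0.23, where other probe sets enter by construction. The line followed for each of the 23 collagens was the one with the largest difference in these same data. Most of the 330 alternatives kept the used probe set, so their agreement was likely in advance. Fits of each probe set on its own were not among the 330. Signal over background is not given, which limits what can be said of dim collagens.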
